A study of Mus musculus with 18 samples.

Results

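Most genes described here code for the enzymes and structural proteins that modify, read or move nucleosomes, and all are called the chromatin genes below. They were chosen by symbol. Some of them, such as Sirt3, Prmt3, Hdac6 and Setd3, therefore act mainly outside the nucleus or on other proteins. The families were Hdac and Sirt deacetylases, Kat acetyltransferases and Ing subunits, Kdm demethylases, Setd and Setdb methyltransferases, Prmt arginine methyltransferases, Ezh, Eed, Suz12, Bmi1, Ring1 and the Cbx proteins, Smarc and Chd remodelers, Brd bromodomain proteins, Rbbp proteins, and the Hmga, Hmgb and Hmgn proteins. The rule found 90 probe sets that carried a single gene symbol, which stood for 69 of the 8251 genes on the array. For the 15 genes with more than 1 probe set, the set with the highest mean signal was used. Of the 69 genes, 11 were on probe sets among the dimmest 33.3% of the array, where little change can be seen. A further 6 probe sets that named a matching symbol (Cbx3, Hmgb1, Hmgn2 or Ing4) beside another gene were not used.

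The cells were G1E-ER4, 1 subclone of a mouse erythroid line grown from embryonic stem cells whose Gata-1 gene had been disrupted. All of them carried Gata-1-ER, a fusion of Gata-1 with the estradiol-binding domain, which becomes active when estradiol is added. RNA was taken before estradiol (0 h) and after 3, 7, 14, 21 and 30 h, with 3 biological replicates (A, B and C) per time and 1 Affymetrix MG-U74Av2 array for each. Every group therefore shared the loss of Gata-1 and the fusion, and the groups differed only in the time in estradiol, so that time in culture, estradiol itself and Gata-1 activity cannot be told apart. In RNA from a whole culture, fewer cells of a type and less RNA per cell cannot be told apart either.

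Histone acetylation loosens the hold of histones on DNA and is read by bromodomains, and deacetylases remove it. Methylation of histone tails marks active or silent genes according to the residue, and Polycomb and HP1 proteins bind the silent forms. Remodelers of the SWI/SNF, ISWI and Chd families use ATP to slide or evict nucleosomes. As red cell precursors mature, their chromatin condenses progressively before the nucleus is expelled, and Gata-1 works with acetyltransferases and with deacetylase and remodeling complexes at its target genes.

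The arrays were alike in median signal, Gapdh ratio and correlation within a time, and differed more in the actin ratio. The median signal of an array lay between 38.2 and 50.9, the ratio of the 3' to the 5' Gapdh probe set between 0.914 and 1.27, and the mean correlation of an array with those of its own time between 0.957 and 0.973. The actin ratio ranged from 0.968 to 2.04 and its ranges at 0 h and 30 h overlapped. Array A had the lowest actin ratio at 6 of 6 times and the lowest Gapdh ratio at 5. The erythroid identity of the cells was seen in all arrays: the summed signal of 8 erythroid markers lay between 9885 and 11718 at 0 h and between 56944 and 67670 at 30 h, and 7 of the 8 rose. Of 15 cell division genes, 14 fell by 30 h, and their sum went from 15083 to 15996 at 0 h, through 15293 to 21027 at 14 h and 9341 to 14013 at 21 h, to between 1979 and 3473 at 30 h. This fall ran beside those described here, and its part in them was not tested. For markers of other blood or stromal cells, the sums over all arrays were at most 281 for 8 mast cell genes, 438 for 10 neutrophil and macrophage genes and 482 for 8 lymphocyte genes. They lay between 449.6 and 1098 for 8 fibroblast genes, of which Col1a2 alone averaged 430.3 at 0 h and 629 at 30 h. The sum of 4 megakaryocyte genes went from 67.3 to 71.5 at 0 h, through 119.5 to 203 at 14 h and 116 to 158 at 21 h, to between 72.6 and 79.8 at 30 h. Of these 4, Gp9 rose by 14 h and was still up by 21 h, beside the changes at those times described here, and its part in them was not tested. At 30 h, 2 mast cell genes were lower and 1 lymphocyte and 1 fibroblast gene were higher.

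Changes are differences of log2(signal + 16) after quantile normalization, which understates those of dim genes. They come with their standard error (SE) and with p values from the limma model, adjusted by Benjamini-Hochberg over all 12422 probe sets. A gene is said to have risen or fallen only where this adjusted p was below 0.05. Signals are on the deposited linear scale, with 3 arrays at each time listed in the order A, B, C, and ± is the SD of 3 arrays. The signal of one probe set cannot be set against that of another, so only courses are compared between genes.

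Over the 6 times, 39 of the 69 chromatin genes (56.5%) changed by the F test, against 27.2% of all probe sets. At 30 h, 37 differed from 0 h, of which 7 were higher and 30 lower. Of all probe sets, 26.7% were called in this comparison, 12.8% higher and 13.8% lower. Among all genes, each by its brightest probe set, the share was 31.2%. With the dimmest 33.3% of probe sets set aside it was 38.3%, and of the 58 chromatin genes in that range 36 were called (62.1%). Signals of the chromatin genes thus fell more often than they rose, whereas the array as a whole was nearly balanced. The median change of the 69 genes was -0.27, against 0.05 for all probe sets, with 21 genes above 0 and 48 below. This median was -0.45 without 0 h B and also -0.45 without 30 h C, -0.47 with a constant of 1 in place of 16, and -0.62 over the chromatin genes outside the dimmest 33.3%. A change of at least 2-fold was found for 4 genes upwards (6.3% of all probe sets) and 16 downwards (8.65%). The genes that rose at least 2-fold were Sirt2, Hdac5, Ezh1 and Kat2b. Counts at 30 h by role, given below, are to be read against the 31.2% of all genes that were called.

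**Figure D1:**
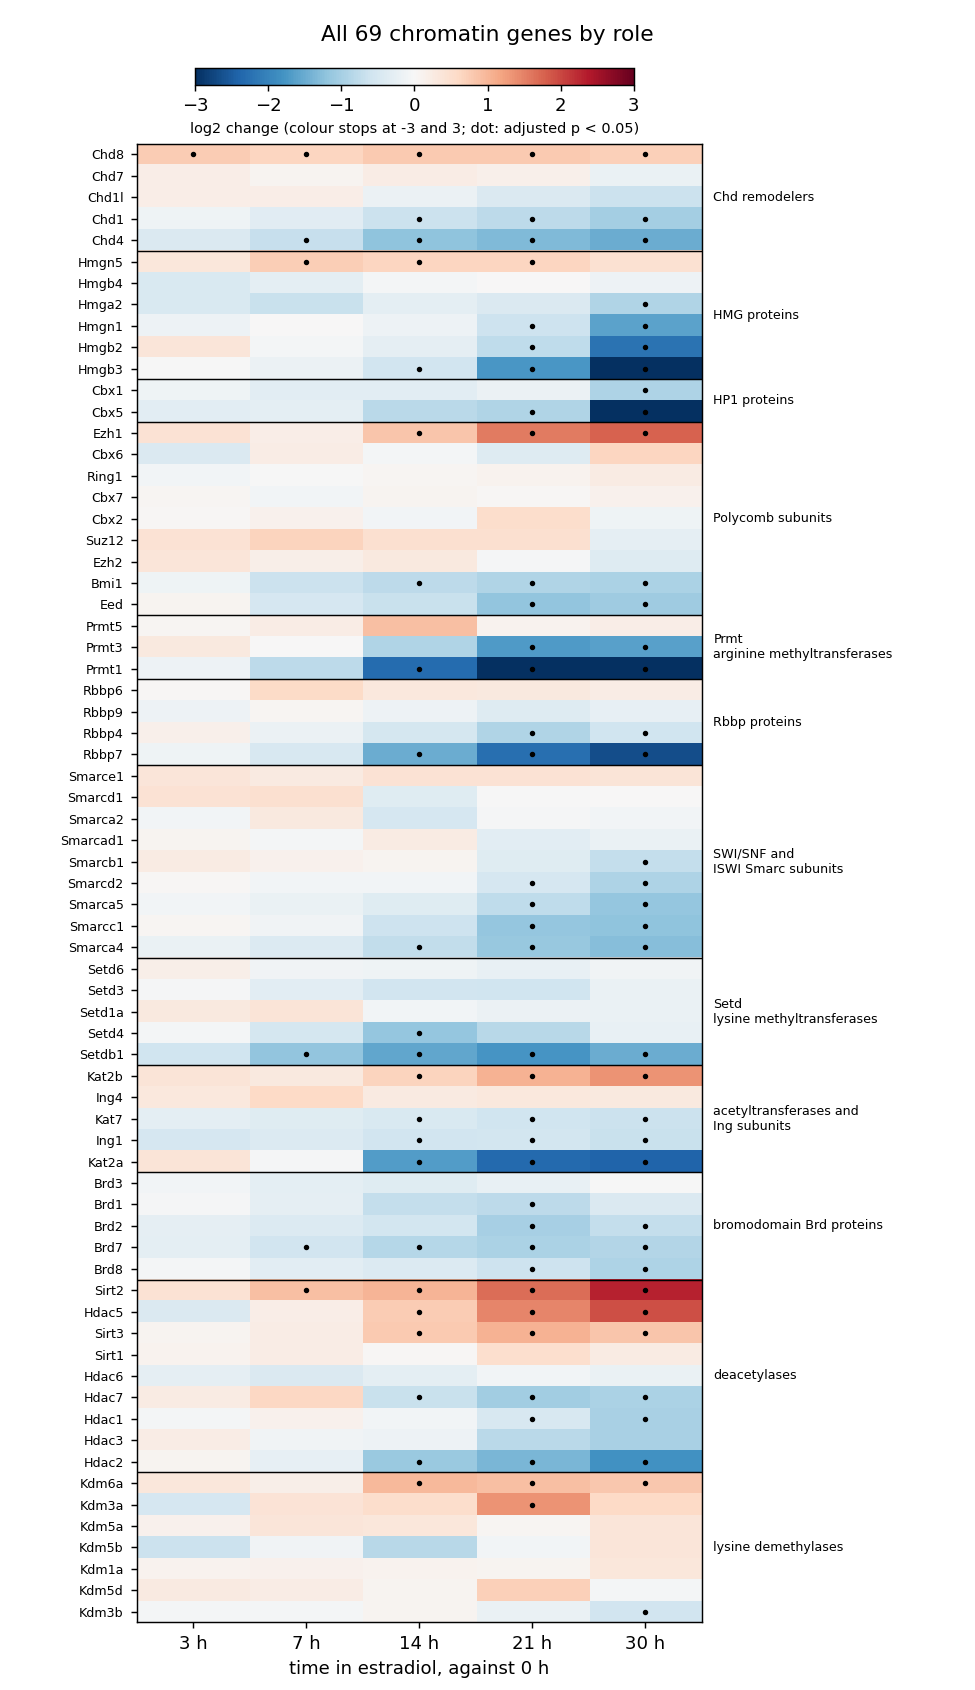
Log2 change of each of the 69 chromatin genes against 0 h (columns: 3, 7, 14, 21 and 30 h; colour: red higher, blue lower), ordered by role, with a dot where the adjusted p was below 0.05. The blue dots gather at 21 and 30 h, while Chd8 is red and called at every time and Sirt2 from 7 h on.

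The calls built up over time. After 3 h, 1 gene was called (1.06% of all probe sets), and none remained without 3 h A. The count was 6 at 7 h (4.17% of all probe sets), with 3 higher (2.48%) and 3 lower (1.69%). With arrays scaled to a common median it was 3, as Chd4 (adjusted p = 0.137), Brd7 (0.0551) and Hmgn5 (0.151) were lost. The count was 23 at 14 h (13.3%), with 8 higher (6.55%) and 15 lower (6.77%). At 21 h it was 36 (20.7%), with 9 higher (9.75%) and 27 lower (10.9%). Of the genes called at 14, 21 and 30 h alike, 7 were higher and 14 lower. In all, 41 genes were called against 0 h at some time, and 25 neither at any time nor in the F test. The shares of all probe sets called in these combined ways were not counted. These combined counts therefore cannot be set against the array as a whole. Between neighbouring times no gene was called from 3 h to 7 h (1.06% of all probe sets) and 5 from 7 h to 14 h (2.33%): Kdm6a rose, and Hdac7, Kat2a, Prmt1 and Rbbp7 fell. From 14 h to 21 h there were 3 (2.32%), namely Hdac5 upwards and Hmgb3 and Rbbp7 downwards. This count was 5 without 14 h A and 1 without 14 h C. From 21 h to 30 h there were 7 (4.98%), with Sirt2 higher and Cbx5, Hdac1, Hmgb2, Hmgb3, Hmgn1 and Suz12 lower, and 4 without 30 h C. Among these calls that of Prmt1 was lost with any 1 of 7 h A (adjusted p = 0.0629), 7 h B (0.0702), 7 h C (0.111) or 14 h A (0.161) left out, and that of Kdm6a with 14 h C (adjusted p = 0.05) left out. From 14 h to 21 h the same held for Hdac5 with any 1 of 14 h B (adjusted p = 0.155), 14 h C (0.135), 21 h A (0.163) or 21 h C (0.0807) left out, and for Rbbp7 with 14 h C (adjusted p = 0.0603) left out. From 21 h to 30 h it held for Sirt2 with any 1 of 3 h A (adjusted p = 0.0527), 14 h C (0.0504), 21 h A (0.117), 21 h B (0.12), 21 h C (0.061), 30 h A (0.191) or 30 h C (0.0812) left out, for Hdac1 with any 1 of 21 h B (adjusted p = 0.15), 21 h C (0.0844), 30 h A (0.0974), 30 h B (0.126) or 30 h C (0.0551) left out and for Suz12 with any 1 of 21 h A (adjusted p = 0.0636), 21 h B (0.123), 30 h B (0.0507) or 30 h C (0.122) left out. From 14 h to 30 h, 19 were called (14.6%), with 5 higher (6.42%) and 14 lower (8.13%).

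**Figure D2:**
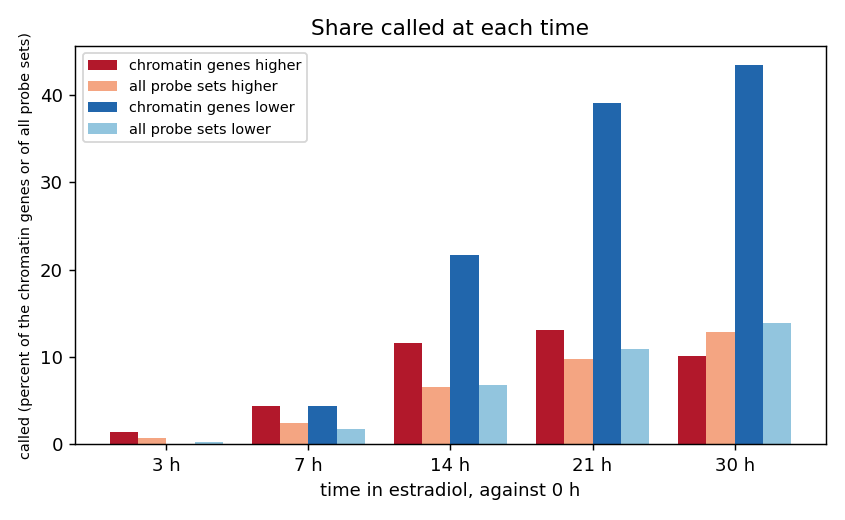
Percent of the 69 chromatin genes and of all 12422 probe sets that were called higher or lower than at 0 h, at each later time. The bars of chromatin genes called lower reach 30 of 69 genes at 30 h, against 13.8% of all probe sets, whereas the bars for higher calls differ less.

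The genes called by 7 h were Chd8, Sirt2 and Hmgn5, which were higher, and Setdb1, Chd4 and Brd7, which were lower. Of these, 3 have the letters GATAA, the core of the sequence that Gata factors bind, on either strand in the 250 bases before a RefSeq start. The windows are shown on the strand of the gene (RefSeq, GRCm38.p6), because these are the chromatin genes whose signal changed soonest after Gata-1-ER was activated. Capitals mark GATAA or its complement TTATC.
Sirt2, chr7:28766502-28766751, plus strand: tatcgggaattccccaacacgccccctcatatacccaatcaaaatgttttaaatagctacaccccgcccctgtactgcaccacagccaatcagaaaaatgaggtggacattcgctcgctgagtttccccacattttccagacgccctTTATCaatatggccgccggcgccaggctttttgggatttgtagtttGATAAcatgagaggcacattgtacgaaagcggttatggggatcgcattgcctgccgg
Setdb1, chr3:95357203-95357452, minus strand: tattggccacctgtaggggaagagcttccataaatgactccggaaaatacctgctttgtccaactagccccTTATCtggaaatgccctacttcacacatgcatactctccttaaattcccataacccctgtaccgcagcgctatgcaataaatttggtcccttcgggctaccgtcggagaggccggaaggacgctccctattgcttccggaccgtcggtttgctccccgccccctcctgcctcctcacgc
Chd4, the first of 2 windows, chr6:125095731-125095980, plus strand: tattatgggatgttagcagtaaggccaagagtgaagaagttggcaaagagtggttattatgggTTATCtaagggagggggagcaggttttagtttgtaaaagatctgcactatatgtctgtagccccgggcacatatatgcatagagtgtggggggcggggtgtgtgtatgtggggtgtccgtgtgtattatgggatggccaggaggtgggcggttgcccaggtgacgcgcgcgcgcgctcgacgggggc
Sirt2 has the word 2 times, on opposite strands. In Setdb1 and Chd4 it is present 1 time, as the complement, and its first base as printed lies 179 and 187 bases before the start. The windows of Brd7, Chd8 and Hmgn5 do not hold these letters. The word was in 22.6% of 32851 RefSeq windows of this length, and in 15 of the 77 windows of the chromatin genes. Counted by gene, it was in at least 1 window of 14 of the 60 chromatin genes that had one. Among the genes with a change of at least 2-fold at 30 h, it was in 1 of the 4 that rose and in 3 of the 15 with a window that fell. The E2F words TTTCGCGC and TTTGGCGC, searched on both strands, were in 0.654% of all windows and in 0 of the 77 windows of the chromatin genes. A match is a run of letters only.

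Deacetylases remove acetyl groups from histones and other proteins. Of the 9 measured, 3 rose and 3 fell by 30 h, and their median change was -0.20. The sirtuin Sirt2, an NAD-dependent deacetylase that acts on tubulin as well as on histone H4, read 76, 119 and 83.3 before estradiol, 133, 106 and 143 (3 h), 202, 198 and 154 (7 h), 209, 188 and 181 (14 h), 284, 307 and 344 (21 h) and finally 600.2, 439 and 458 (30 h). Every array from 7 h on was above every array at 0 h, and the 30 h arrays were above all others. The change was already called at 7 h (log2 change 0.90, SE 0.18, adjusted p = 0.00414) and grew to 2.32 (SE 0.18, adjusted p = 5.14e-09) at 30 h. In a model of the 0 h and 7 h arrays alone the 7 h change was not called (adjusted p = 0.0645). Its relative Sirt3, the main mitochondrial deacetylase, rose from 48.6 ± 7.68 before estradiol to 93.4 ± 13.2 at 30 h (log2 change 0.83, SE 0.22, adjusted p = 0.00732). Hdac5 is a class IIa enzyme that moves between nucleus and cytoplasm and binds Mef2 factors. In the arrays it read 204, 219 and 197 before estradiol, 145, 152 and 144 (3 h), 209, 247 and 261 (7 h), 436, 286 and 328 (14 h), 718, 482 and 588 (21 h) and finally 709, 827 and 955 (30 h). The 3 h arrays lay below all those at 0 h, a difference that did not pass the test (log2 change -0.43, SE 0.17, adjusted p = 0.464), and from 14 h on all arrays were above 0 h. At 30 h the gene had risen 1.93 on the log2 scale (SE 0.17, adjusted p = 5.33e-08).

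Hdac7, another class IIa enzyme, took a different course, with 566, 602 and 621 before estradiol, 664, 802 and 677 (3 h), 807, 969 and 975 (7 h), 458, 279.5 and 368 (14 h), 365, 253 and 212 (21 h) and finally 256, 300 and 308 (30 h). The 7 h arrays stood above all 0 h arrays without passing the test (log2 change 0.63, SE 0.18, adjusted p = 0.0576), and those from 14 h on stood below all of them. Between 7 h and 14 h it fell (log2 change -1.30, SE 0.18, adjusted p = 0.000448). Hdac1 and Hdac2 are the class I catalytic subunits shared by the NuRD, Sin3 and CoREST complexes. Hdac2 read 258, 284 and 317 before estradiol, 285, 271 and 366 (3 h), 283, 218 and 213 (7 h), 77.5, 161 and 141 (14 h), 74.5, 103 and 108 (21 h) and finally 70.5, 58.2 and 66.1 (30 h). From 14 h on every array was below every earlier one, and the 30 h arrays were the lowest (log2 change -1.81, SE 0.24, adjusted p = 5.62e-06). Hdac1 held its level to 14 h, with 293, 299 and 377 there, against 368, 352 and 323 before estradiol, and then declined to 154, 143 and 175 by 30 h (log2 change -0.97, SE 0.13, adjusted p = 1.02e-05). Hdac3, the enzyme of the NCoR complex, spread widely at 30 h (19.0, 86.6 and 21.6) and was not called (log2 change -0.97, SE 0.44, adjusted p = 0.123). Hdac6, a cytoplasmic tubulin deacetylase, and Sirt1, a nuclear deacetylase whose probe set was dim, were not called at any time either.

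The acetyltransferases Kat2a (Gcn5) and Kat2b (Pcaf) are close relatives, and each can serve as the catalytic subunit of SAGA and ATAC complexes. The first fell and the second rose. Kat2a read 116, 158 and 155 before estradiol, 178, 160.4 and 221 (3 h), 90.4, 179 and 155 (7 h), 34.9, 33.6 and 30.1 (14 h), 17.8, 14.7 and 11.5 (21 h) and finally 13, 12.6 and 15 (30 h). The 14 h arrays were below every earlier array and the 21 h and 30 h arrays lower still, overlapping each other. By 30 h it had fallen by 2.39 on the log2 scale (SE 0.24, adjusted p = 2.81e-07). Kat2b read 69.6, 66.5 and 76.3 before estradiol, 109.9, 89 and 90.2 (3 h), 80.1, 73.6 and 125 (7 h), 109.9, 126 and 127 (14 h), 144, 161 and 157 (21 h) and finally 195, 186 and 185 (30 h). Each 30 h array was above every other, and the gene rose (log2 change 1.34, SE 0.19, adjusted p = 1.41e-05). Its second probe set was higher by 0.60 and not called (adjusted p = 0.106). Kat7 (Hbo1), which acetylates H3 and H4 near replication origins, fell (log2 change -0.64, SE 0.13, adjusted p = 0.000986), though its second probe set changed by only 0.01 and the mean of both was not called (adjusted p = 0.0843). Ing1, a reader of trimethylated H3K4 in Sin3 complexes, also fell (log2 change -0.67, SE 0.15, adjusted p = 0.00204). Ing4, its counterpart in acetyltransferase complexes, was not called on the probe set used (0.29, adjusted p = 0.56). Of the unused probe sets that name both Acrbp and Ing4, one was higher at 30 h (0.77, adjusted p = 0.000263). The other was not called at 30 h (0.30, adjusted p = 0.175), though it was higher at 21 h (0.49, adjusted p = 0.029). In this group of 5, therefore, 1 rose, 3 fell and the median was -0.64.

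**Figure D3:**
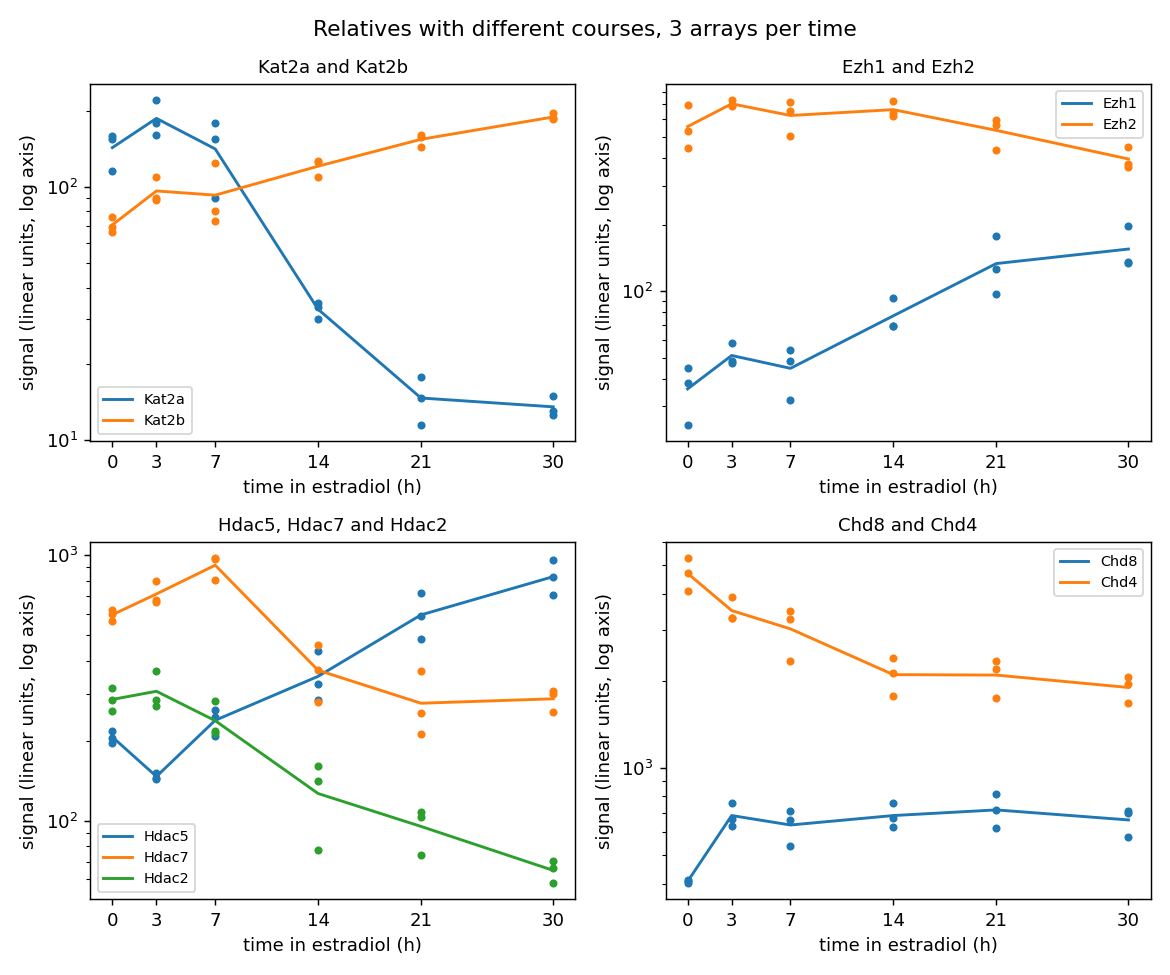
Signal (linear units on a log axis) against time in estradiol for related chromatin genes, with 1 point per array, 3 per time, and lines through the means. Kat2a, Hdac7, Hdac2 and Chd4 end below their 0 h arrays, while Kat2b, Ezh1, Hdac5 and Chd8 end above theirs. Heights of different genes cannot be compared, because they come from different probes.

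Related genes were set against each other by the difference of their changes from 0 h to 30 h on the log2 scale. The pairs were picked after their values had been seen. This difference was 3.73 for Kat2b over Kat2a, 3.75 for Hdac5 over Hdac2 and 2.87 for Hdac5 over Hdac7. It was 2.16 for Ezh1 over Ezh2, 2.22 for Chd8 over Chd4, 1.49 for Sirt2 over Sirt3, 0.84 for Hdac1 over Hdac2 and -2.06 for Rbbp7 over Rbbp4. In each of the 8 pairs the 3 differences within arrays at 30 h did not overlap those at 0 h. The exact two-sided permutation p was 0.1 for each, the smallest that 3 against 3 arrays allow, and 0.1 after adjustment over the 8. Because the pairs were picked with these same values known, neither the separation nor this p counts as support. Other relatives were not compared in this way.

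Bromodomain proteins read acetylated histones. Of the 5 Brd genes, 3 were lower at 30 h, 0 higher, and the median was -0.71. Brd7, a subunit of the PBAF form of SWI/SNF, read 623, 648 and 768 before estradiol, 595, 510.4 and 580.4 (3 h), 425, 451 and 481 (7 h), 321, 395 and 384 (14 h), 344, 326 and 334 (21 h) and finally 369, 334 and 324 (30 h). Its 7 h arrays were already below all 0 h arrays (log2 change -0.57, SE 0.12, adjusted p = 0.00759), but this early call was lost without 0 h C (adjusted p = 0.056), and the probe set may read related transcripts. The 7 h call was also lost with the mean of the 3 Brd7 probe sets (-0.44, adjusted p = 0.113). The same held for a probe set of certain assignment (-0.56, adjusted p = 0.247) and for a model of only the arrays compared (adjusted p = 0.0527). At 30 h the change was -0.89 (SE 0.12, adjusted p = 1.02e-05), and a second probe set fell too (-1.12, adjusted p = 0.000783). Brd8, a subunit of the Tip60 complex, fell from 192 ± 20.2 before estradiol to 87.1 ± 16.5 at 30 h (log2 change -0.93, SE 0.22, adjusted p = 0.00242). Brd2 and Brd1 were each read only by a probe set of uncertain assignment. Brd2, a BET protein that binds acetylated histone tails, went from 123 ± 20.4 before estradiol to 64.6 ± 5.82 at 30 h (log2 change -0.71, SE 0.22, adjusted p = 0.0235). It was not called with any 1 of 0 h A (adjusted p = 0.0733), 0 h B (0.089), 30 h A (0.0532) or 30 h C (0.0951) left out. Brd1, a scaffold of acetyltransferase complexes, was called lower at 21 h and at no other time (log2 change -0.80, SE 0.25, adjusted p = 0.0307), a call lost with any 1 of 0 h A (adjusted p = 0.0804), 0 h B (0.0646), 0 h C (0.0724), 21 h A (0.172) or 21 h C (0.0827) left out. Brd3 stayed at 13.7 or less at 30 h and gave no call.

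The demethylases were the group with the highest median, 0.36, and of 7 genes 1 rose and 1 fell by 30 h. This share of 28.6% was near the 31.2% of all genes. Kdm6a (Utx) removes methyl groups from H3K27 and so opposes Polycomb. It read 128, 122 and 119 before estradiol, 193, 143 and 149 (3 h), 142, 122 and 157 (7 h), 229.5, 228 and 297 (14 h), 213, 225 and 254 (21 h) and finally 216, 231 and 193 (30 h). All arrays from 14 h on were above those at 0 h, and the gene was higher at both ends of that span (log2 change 0.97, SE 0.16, adjusted p = 0.000258 at 14 h and 0.82 (SE 0.16, adjusted p = 0.000516) at 30 h). Kdm3a and Kdm3b both demethylate H3K9. Kdm3a was called higher at 21 h and at no other time, with 1042, 781 and 464 against 213, 285 and 384 at 0 h (log2 change 1.34, SE 0.29, adjusted p = 0.00197). Kdm3b was lower at 30 h (log2 change -0.57, SE 0.17, adjusted p = 0.0196), and this was lost with any 1 of 0 h C (adjusted p = 0.145) or 30 h B (0.0871) left out. The H3K4 demethylase Kdm5b rose from 14 h to 30 h (log2 change 1.19, SE 0.30, adjusted p = 0.00874), which was lost without 14 h C (adjusted p = 0.0584), and did not differ from 0 h at 30 h by the test (adjusted p = 0.439). Kdm1a (Lsd1), the H3K4 demethylase of the CoREST complex that Gfi1b recruits, stayed between 60.3 and 146 in all arrays and was not called at any time (log2 change 0.34, SE 0.27, adjusted p = 0.428). Kdm5a and Kdm5d were dim and not called.

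Among the Setd and Setdb genes, Setdb1 was the 1 of 5 that fell by 30 h, 0 rose, and the median was -0.20. At 20%, the share called was below the 31.2% of all genes. Setdb1 methylates H3K9 and works with Trim28 to silence repeats and genes bound by zinc finger repressors. It read 801, 812 and 731 before estradiol, 518, 492 and 575 (3 h), 389, 304 and 347 (7 h), 216, 248 and 308 (14 h), 199, 228 and 211 (21 h) and finally 182, 367 and 265 (30 h). The arrays at 3 h were below all those at 0 h, those at 7 h were lower again, and the later ones overlapped one another. The change was -0.61 (SE 0.19, adjusted p = 0.19) at 3 h, which missed the threshold, -1.18 (SE 0.19, adjusted p = 0.000611) at 7 h and -1.77 (SE 0.19, adjusted p = 7.22e-07) at 21 h. At 7 h the mean over its probe sets, of which the other was near background, was not called (adjusted p = 0.0641). Setd4 dipped at 14 h (log2 change -1.17, SE 0.35, adjusted p = 0.0294), a call lost with any 1 of 0 h A (adjusted p = 0.164), 0 h B (0.0976), 14 h A (0.124) or 14 h B (0.0733) left out. Setd6, which methylates RelA, kept a signal between 183 and 334. Setd3, an actin methyltransferase, and Setd1a, an H3K4 methyltransferase, were below 30 in all arrays, and none of these 3 was called.

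Of the 3 arginine methyltransferases 2 fell, 0 rose and the median was -1.63, and they held the gene with the largest change at 30 h among the 69. Prmt1, which makes most of the asymmetric dimethylarginine of the cell and methylates histone H4, read 1133, 1209 and 1404 before estradiol, 1109, 1014 and 1348 (3 h), 661, 714 and 852 (7 h), 137, 335 and 341 (14 h), 61.2, 171 and 199 (21 h) and finally 89.3, 124 and 69.2 (30 h). The arrays at 7 h lay below all those at 0 h without passing the test (log2 change -0.79, SE 0.36, adjusted p = 0.326), and the 14 h arrays were below all of those. At 30 h the change was -3.57 (SE 0.36, adjusted p = 2.28e-07). Prmt3, a cytoplasmic enzyme that methylates a ribosomal protein, went from 70.4 ± 11.4 before estradiol to 13.5 ± 15.8 at 30 h (log2 change -1.63, SE 0.41, adjusted p = 0.00466). Its 30 h arrays were 4.3, 31.8 and 4.5, all below the lowest 0 h array of 59.3. Prmt5, the main symmetric enzyme, was dim and was not called (0.20 at 30 h, adjusted p = 0.705), with 11.2, 54.2 and 39.9 at 14 h.

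In the Polycomb group, 1 of 9 genes rose and 2 fell by 30 h, and the median was -0.12. The share called, 33.3%, was near the 31.2% of all genes. Ezh1 and Ezh2 are alternative catalytic subunits of PRC2, which methylates H3K27, and Ezh2 is the form typical of dividing cells. Ezh1 read 44.9, 24.8 and 38.4 before estradiol, 48.3, 47 and 57.9 (3 h), 32.1, 48.1 and 53.8 (7 h), 93.3, 69.1 and 69.3 (14 h), 177, 126 and 96.7 (21 h) and finally 134, 196 and 135 (30 h). From 14 h on its arrays were above all earlier ones, and by 30 h it had risen 1.77 (SE 0.25, adjusted p = 1.21e-05). The 14 h call by itself was lost with any 1 of 0 h B (adjusted p = 0.132), 14 h A (0.0989), 14 h B (0.0504) or 14 h C (0.0544) left out. Ezh2 read 529, 693 and 445 before estradiol, 734, 686 and 694 (3 h), 504, 715 and 652 (7 h), 619.8, 644 and 726 (14 h), 438, 598 and 567 (21 h) and finally 363, 378 and 449 (30 h). Its 30 h arrays overlapped those at 0 h (log2 change -0.39, SE 0.16, adjusted p = 0.0848) and were below all those at 14 h, from which it fell (log2 change -0.67, SE 0.16, adjusted p = 0.00649).

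The other PRC2 core subunits followed neither course exactly. Eed, which binds the methylated product, fell from 189 ± 40.9 before estradiol to 76.7 ± 22.0 at 30 h (log2 change -1.07, SE 0.26, adjusted p = 0.00336). Suz12, the scaffold, read 151, 203 and 120.2 before estradiol, 204, 246 and 197 (3 h), 227, 237 and 312 (7 h), 184, 252 and 217 (14 h), 216, 246 and 175 (21 h) and finally 129, 119 and 104 (30 h). Its 7 h arrays were above all 0 h arrays and its 30 h arrays below all from 3 h to 21 h. It was not called at 7 h (log2 change 0.67, SE 0.19, adjusted p = 0.0596) and fell from 14 h to 30 h (log2 change -0.75, SE 0.19, adjusted p = 0.0115), a call lost with any 1 of 14 h B (adjusted p = 0.0616) or 30 h C (0.0621) left out. A second Suz12 probe set went from 102 at 0 h to 185 at 14 h and 77.2 at 30 h and also fell between the last of these (-1.06, adjusted p = 0.0277). The dimmest of its 3 probe sets did not (0.15, adjusted p = 0.83), and with the mean of all 3 the fall was not called from 14 h to 30 h (-0.55, adjusted p = 0.059) or from 21 h to 30 h (-0.52, adjusted p = 0.142). Bmi1, a PRC1 subunit needed by blood stem cells, fell from 880.0 ± 149 before estradiol to 435 ± 29.6 at 30 h (log2 change -0.95, SE 0.23, adjusted p = 0.00371), and all its 30 h arrays were below all at 0 h. Ring1, Cbx2, Cbx6 and Cbx7, the E3 ligase and chromodomain subunits of PRC1, were not called in any comparison with 0 h.

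Cbx5 and Cbx1 code for HP1 alpha and HP1 beta, which bind methylated H3K9 in heterochromatin, and both were called lower at 30 h (median -1.995). Cbx5 read 523, 257 and 329 before estradiol, 348, 233 and 289.9 (3 h), 429.8, 232 and 236 (7 h), 186, 218 and 179 (14 h), 155, 155 and 221 (21 h) and finally 32.2, 44.2 and 13.5 (30 h). All arrays at 14 h and 21 h were already below those at 0 h. The gene was called lower at 21 h (log2 change -0.90, SE 0.31, adjusted p = 0.0437). This call was lost, among others, without 0 h A (adjusted p = 0.236) or 21 h A (0.139), and with the mean of both probe sets (0.1). The largest drop came at the end of the course: the highest 30 h array, 44.2, was below the lowest of all earlier arrays, 154.6. From 21 h to 30 h the change was -2.17 (SE 0.31, adjusted p = 0.000181), and from 0 h to 30 h it was -3.07 (SE 0.31, adjusted p = 2.03e-07). A second Cbx5 probe set was lower by a smaller amount that missed the threshold (-0.71, adjusted p = 0.067). Cbx1 was lower at 30 h, at 32.4, 22.3 and 15.3 against 70.5, 49.3 and 53.8 (log2 change -0.92, SE 0.26, adjusted p = 0.012), which was lost with any 1 of 0 h A (adjusted p = 0.0527) or 30 h C (0.0743) left out.

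The HMG proteins bend DNA or loosen linker histone binding and are abundant in immature cells. Of 6 genes, 4 fell, 0 rose and the median change was -1.26. Hmgb3, which is known from blood progenitors, had the smallest p of all the chromatin genes. It read 3750.4, 3508 and 3513 before estradiol, 3429, 3676 and 3739 (3 h), 3323, 3586 and 3158 (7 h), 2434, 2583 and 2834 (14 h), 922, 1349 and 1376 (21 h) and finally 397, 503 and 490.3 (30 h). The 14 h, 21 h and 30 h arrays formed 3 separate ranges, each below the one before, and the 30 h change was -3.005 (SE 0.12, adjusted p = 1.13e-12). Hmgb2, a relative whose level is high in dividing cells, read 247, 268 and 262 before estradiol, 327, 319 and 381 (3 h), 304, 191 and 249 (7 h), 131, 268 and 258 (14 h), 159.5, 123 and 125 (21 h) and finally 54.2, 48.2 and 25.2 (30 h). The 30 h arrays were below all others (log2 change -2.22, SE 0.26, adjusted p = 1.49e-06), and the probe set is one whose gene assignment is uncertain. Hmgn1, a nucleosome-binding protein, was nearly level to 14 h, at 4063, 5112 and 4384 against 4847, 5142 and 4638 at 0 h. It then went down to 1532, 1822 and 2167 at 30 h (log2 change -1.60, SE 0.14, adjusted p = 3.6e-08). Its relative Hmgn5 was higher at 7 h, at 424, 315 and 494 against 250, 182 and 304 (log2 change 0.74, SE 0.19, adjusted p = 0.035), with no overlap, and was not called at 30 h (adjusted p = 0.0907). The 7 h call was lost with any 1 of 0 h A (adjusted p = 0.0778), 0 h B (0.199), 7 h A (0.0999) or 7 h C (0.173) left out. Hmga2, an embryonic DNA-binding protein, was called lower at 30 h from signals of 21.5 or less (-0.91, adjusted p = 0.042), and the call was lost with any 1 of 0 h A (adjusted p = 0.0708), 0 h B (0.108), 0 h C (0.0882), 30 h A (0.0955), 30 h B (0.112) or 30 h C (0.0637) left out. Hmgb4 was dim and not called.

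Rbbp4 and Rbbp7 are histone-binding proteins shared by PRC2, NuRD and Sin3 complexes. Of the 4 Rbbp genes these were the 2 that fell, 0 rose, and the median was -0.43. Rbbp7 read 2011, 2407 and 2293 before estradiol, 1978, 2032 and 2402 (3 h), 1482, 1534 and 2047 (7 h), 659, 919 and 964 (14 h), 572, 478 and 402 (21 h) and finally 311, 397 and 347 (30 h). It fell in each interval from 7 h to 14 h, 14 h to 21 h and 14 h to 30 h, and all 30 h arrays were below all others. The change at 30 h was -2.66 (SE 0.15, adjusted p = 1.35e-10). Rbbp4 fell less, from 822 ± 63.2 before estradiol to 527 ± 62.9 at 30 h (log2 change -0.60, SE 0.18, adjusted p = 0.0165). It was not called with any 1 of 0 h C (adjusted p = 0.0585) or 30 h A (0.0781) left out. Rbbp6, a ubiquitin ligase that binds the retinoblastoma protein, and Rbbp9 were not called. They share the symbol but are not subunits of these complexes.

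**Figure D4:**
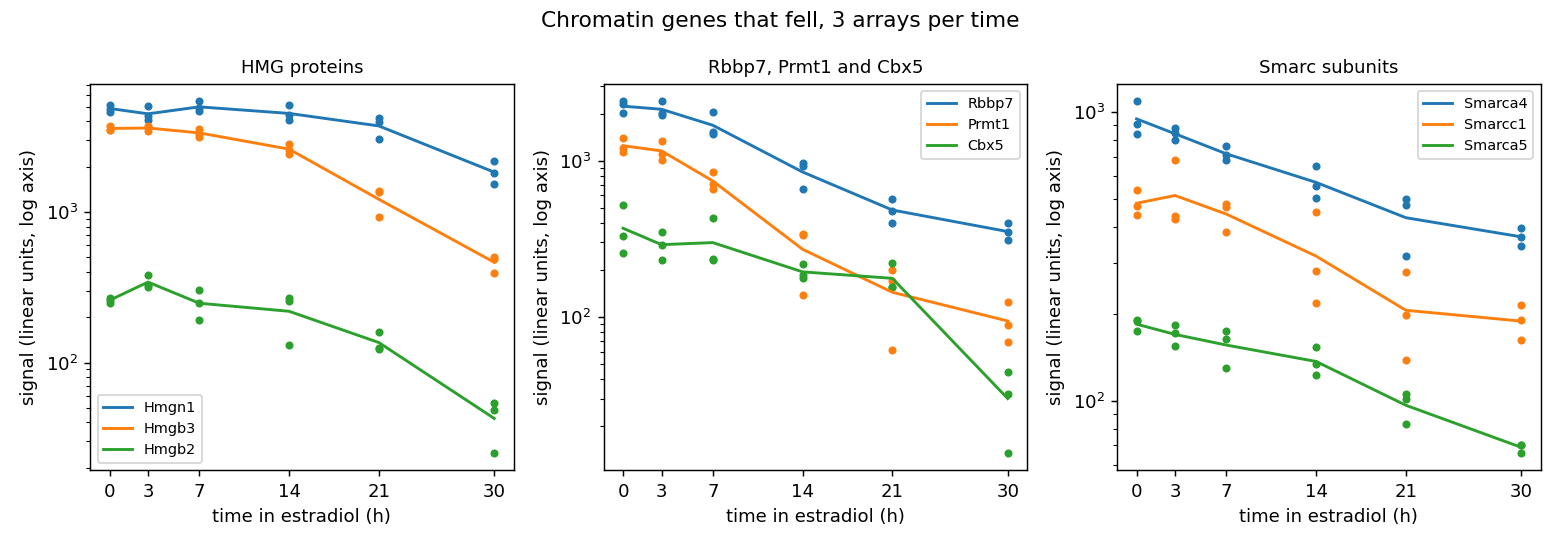
Signal (linear units on a log axis) against time in estradiol for 9 chromatin genes that fell, with 1 point per array, 3 per time, and lines through the means. At 14 h all arrays of Rbbp7, Prmt1, Smarca4 and Cbx5 lie below those at 0 h, whereas those of Hmgn1 and Hmgb2 overlap them.

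Of the 9 Smarc genes, 5 fell by 30 h, 0 rose and the median was -0.72. Smarca4 (Brg1), the ATPase of SWI/SNF that erythroid globin genes require, read 839, 911 and 1090.2 before estradiol, 880, 798 and 845 (3 h), 680.2, 759.8 and 709.9 (7 h), 504, 652 and 556 (14 h), 318, 498 and 475 (21 h) and finally 369.5, 396 and 343 (30 h). From 7 h on every array was below all those at 0 h, and at 30 h the change was -1.29 (SE 0.14, adjusted p = 7.38e-07). A second Smarca4 probe set, among the dimmest 33.3%, was not called at any time. With the mean of both, the gene was not called at 14 h (-0.26, adjusted p = 0.579, against -0.74 for the brighter) or at 21 h (-0.27, adjusted p = 0.502, against -1.15). Its alternative ATPase Smarca2 (Brm) stayed at 36.2 or less and was not called (log2 change -0.09, SE 0.29, adjusted p = 0.886). Smarcc1 and Smarcb1, core SWI/SNF subunits, fell (log2 change -1.20, SE 0.25, adjusted p = 0.00108 for Smarcc1 and -0.72 (SE 0.17, adjusted p = 0.00243) for Smarcb1). Smarca5 (Snf2h), the ISWI ATPase, was at 174, 188 and 190 before estradiol and at 70.4, 70.4 and 66.1 by 30 h (log2 change -1.15, SE 0.17, adjusted p = 2.66e-05), and a second probe set fell as well (-0.91, adjusted p = 0.0169). For Smarcd2 the probe sets disagreed. The brightest, which may read several transcripts, fell (log2 change -0.92, SE 0.16, adjusted p = 0.000164), another with an uncertain assignment rose (0.66, adjusted p = 0.0114), and the mean of all its probe sets was not called (-0.16, adjusted p = 0.608). Smarcd1, Smarce1 and Smarcad1 were not called.

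Of the 5 Chd remodelers 1 rose and 2 fell (median -0.64), and they held the earliest call. Chd8, which binds beta-catenin and methylated H3K4, read 402, 407 and 412 before estradiol, 759, 668 and 631 (3 h), 661, 711 and 537 (7 h), 758, 628 and 672 (14 h), 817, 715 and 621 (21 h) and finally 709, 700.2 and 579 (30 h). All 15 later arrays were above the 0 h arrays, and the later times overlapped one another. The change was 0.75 (SE 0.14, adjusted p = 0.00733) at 3 h and 0.72 (SE 0.14, adjusted p = 0.00052) at 30 h. The call at 3 h was lost without 3 h A (adjusted p = 0.0656) and that at 7 h without 7 h B (adjusted p = 0.0608). Chd4 (Mi-2 beta), the ATPase of NuRD, read 4081, 5297 and 4709 before estradiol, 3891, 3294 and 3296 (3 h), 2335, 3472 and 3254 (7 h), 1771, 2125 and 2405 (14 h), 1748, 2335 and 2197 (21 h) and finally 1949.5, 2067 and 1674 (30 h). It was below its 0 h arrays at every later time and passed the test from 7 h on (log2 change -0.69, SE 0.14, adjusted p = 0.00466), but not at 7 h when the arrays were scaled to a common median without quantile normalization (adjusted p = 0.137). At 30 h the change was -1.498 (SE 0.14, adjusted p = 6.22e-08), on a probe set that may read related transcripts. Chd1, which travels with the elongating polymerase, fell (log2 change -1.02, SE 0.17, adjusted p = 0.000114). The probe sets of Chd7 and Chd1l gave no call.

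The 37 genes called at 30 h differed in when they changed, as shown by the steps from 0 h to 14 h and from 14 h to 30 h. The earlier step alone was called for 10 genes that fell (Bmi1, Brd7, Chd1, Chd4, Hdac2, Hdac7, Ing1, Kat2a, Kat7 and Setdb1) and for 3 that rose (Chd8, Kdm6a and Sirt3). Both steps were called for 4 that rose (Ezh1, Hdac5, Kat2b and Sirt2) and 4 that fell (Hmgb3, Prmt1, Rbbp7 and Smarca4). The later step alone was called for 8 genes, all falling: Cbx5, Hdac1, Hmgb2, Hmgn1, Kdm3b, Smarca5, Smarcb1 and Smarcd2. For another 8 that fell, neither step passed by itself. The shares of all probe sets in these classes were not counted, so these counts cannot be set against the array as a whole. A call in one step and not in the other does not show that the steps differ, and that difference was not tested. The steps were, for example, -1.57 and then 0.08 for Setdb1, and -0.15 and then -1.46 for Hmgn1.

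Several of these step calls hung on single arrays. The earlier step was lost for Bmi1 with any 1 of 0 h A (adjusted p = 0.13), 0 h C (0.0661), 14 h A (0.115) or 14 h C (0.116) left out, for Chd1 with any 1 of 0 h C (adjusted p = 0.0764) or 14 h A (0.0781) left out and for Hdac7 with any 1 of 0 h C (adjusted p = 0.0563) or 14 h B (0.0994) left out. It was lost for Ing1 with 0 h B (adjusted p = 0.0506) left out, for Kat2b with any 1 of 0 h A (adjusted p = 0.0623), 0 h B (0.0661), 14 h B (0.0617) or 14 h C (0.0759) left out, for Kat7 with any 1 of 0 h B (adjusted p = 0.0766), 0 h C (0.108), 14 h A (0.0721) or 14 h B (0.0846) left out and for Sirt3 with any 1 of 0 h A (adjusted p = 0.0546), 0 h B (0.0826) or 14 h B (0.105) left out. The later step was lost for Ezh1 with 30 h B (adjusted p = 0.0773) left out, for Kat2b with any 1 of 14 h A (adjusted p = 0.0803), 30 h A (0.0666) or 30 h B (0.0551) left out, for Kdm3b with any 1 of 14 h C (adjusted p = 0.0523) or 30 h B (0.0776) left out, for Prmt1 with any 1 of 14 h B (adjusted p = 0.11), 14 h C (0.115), 30 h A (0.0616) or 30 h C (0.11) left out and for Smarca4 with any 1 of 14 h B (adjusted p = 0.0674) or 30 h C (0.0544) left out. Other settings also ended step calls. With arrays scaled to a common median the earlier step was lost for Hmgb3 (adjusted p = 0.115), the later for Smarca4 (0.0797) and both for Kat2b (0.0559 and 0.054). With the mean of all probe sets of a gene the earlier step was lost for Kat2b (adjusted p = 0.182) and Kat7 (0.397), the later for Smarcd2 (0.926) and both for Smarca4 (0.579 and 0.201). In models of only the arrays compared the earlier step was lost for Chd1, Ezh1, Kat2b, Kat7 and Sirt3 and the later for Prmt1. The earlier step of Ezh1 was also lost with a constant of 64 (adjusted p = 0.055), and that of Bmi1 without an intensity trend (0.0507). No chromatin gene was called in one direction by 14 h and in the other from 14 h to 30 h, and 153 of all 12422 probe sets were. With so few on the array, 0 of 69 says little about the chromatin genes. At an unadjusted p below 0.05, Kdm5b, Prmt5, Setd4 and Suz12 turned in this way, and how many of all probe sets did so at that threshold was not counted.

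**Figure D5:**
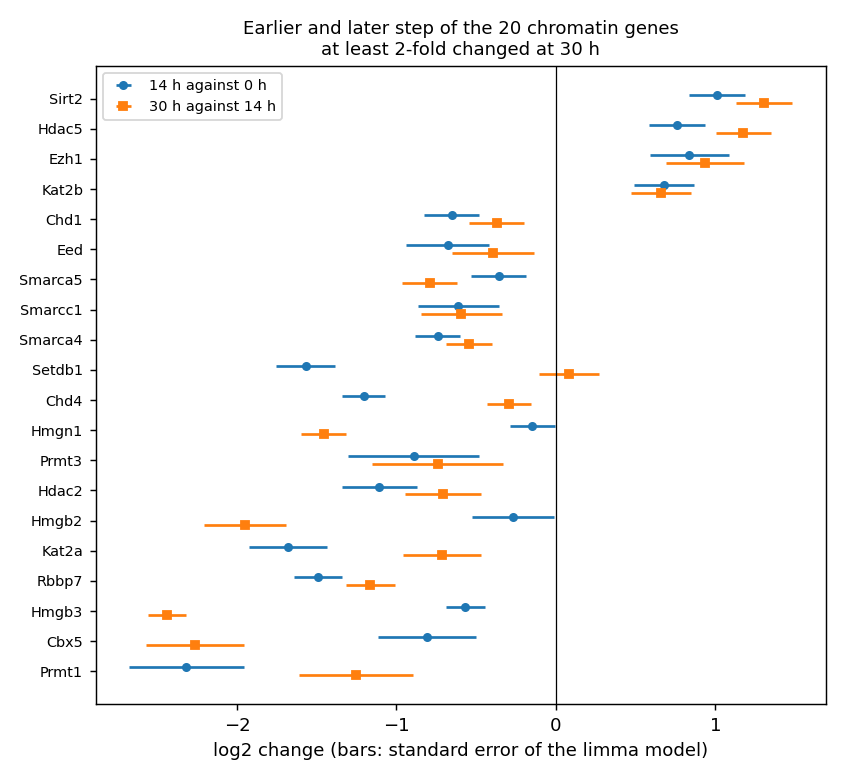
Log2 change from 0 h to 14 h (circles) and from 14 h to 30 h (squares), with standard errors of the limma model, for the 20 chromatin genes that changed at least 2-fold by 30 h. Setdb1, Chd4 and Kat2a have their larger step before 14 h, and Cbx5, Hmgb3, Hmgb2 and Hmgn1 after it.

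Chromatin genes that carry other symbols were taken from 8 lists. Some lists hold partners in the same complexes. Others hold further histone-modifying enzymes, histone chaperones, or heterochromatin and insulator proteins, which need not share a complex with the 69 genes. Of 101 measured, 52 differed at 30 h (51.5%), with 10 higher and 42 lower, and the median was -0.43. The share of all probe sets was 26.7%, and that of all genes 31.2%. The counts at earlier times were 2 at 3 h (1.06% of all probe sets), 9 at 7 h (4.17%), 27 at 14 h (13.3%) and 42 at 21 h (20.7%). Histone chaperones, which bring histones to DNA or take them away, were mostly lower: of 17 measured, 14 fell (82.4%), 0 rose and the median was -1.30. Set, an inhibitor of histone acetylation and of the phosphatase PP2A, went from 1104 ± 22.2 before estradiol to 108 ± 12.7 at 30 h (log2 change -3.19, SE 0.12, adjusted p = 5.9e-13). Anp32b, a related acidic chaperone, fell by 2.46 (SE 0.15, adjusted p = 2.71e-10). In the heterochromatin and insulator list 7 of 13 fell, 0 rose and the median was -0.65. Trim28, the partner of Setdb1, fell (log2 change -1.91, SE 0.11, adjusted p = 1.68e-10), as did Banf1, a DNA-bridging protein of the nuclear envelope (-2.19, SE 0.13, adjusted p = 2.43e-10).

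Other subunits of SWI/SNF, INO80 and Tip60 complexes fell in 8 of 19 cases and rose in 1 (median -0.36). Ruvbl1 and Ruvbl2, ATPases that form a ring in INO80 and Tip60, fell by 2.73 (SE 0.14, adjusted p = 2.34e-11) and 2.32 (SE 0.15, adjusted p = 7.27e-10). Among 12 other acetyltransferases and partners, 4 fell and 1 rose (median -0.34). Hat1, which acetylates newly made H4, was read by a probe set of uncertain assignment and fell (log2 change -2.91, SE 0.25, adjusted p = 2.62e-08), and Baz1b, a partner of Smarca5, fell too (-1.85, SE 0.14, adjusted p = 3.55e-09). Of 17 other histone methyltransferases and partners, 3 rose and 5 fell (median -0.33). Kmt5c (Suv420h2), which adds methyl groups to H4K20 in heterochromatin, rose from 581 ± 7.55 before estradiol to 2858 ± 198 at 30 h (log2 change 2.18, SE 0.11, adjusted p = 2.59e-11), while Smyd5 fell (log2 change -2.46, SE 0.34, adjusted p = 1.19e-05).

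Of 8 Sin3, CoREST and NCoR genes, 2 rose and 2 fell by 30 h (median -0.29), whereas at 14 h 4 were lower and 0 higher, and at 21 h 4 lower and 1 higher. Suds3, a Sin3 subunit read by a probe set of uncertain assignment, rose (log2 change 1.14, SE 0.15, adjusted p = 6.91e-06), and Sap30l was at -0.42 (adjusted p = 0.0598). In the NuRD list 1 of 4 fell, 0 rose and the median was -0.08, a share (25%) near that of all probe sets. Mbd3, which holds the NuRD complex together, fell (log2 change -0.86, SE 0.15, adjusted p = 0.000138), and Gatad2a was not called (0.06, adjusted p = 0.833). Among 11 Polycomb partners 3 rose and 1 fell (36.4% called, median -0.18). Phf1, a PRC2 accessory subunit, rose (log2 change 1.10, SE 0.19, adjusted p = 0.0002), and so did Jarid2, another one (0.48, SE 0.15, adjusted p = 0.0241).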

How the data were processed

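RNA of 18 cultures of G1E-ER4 cells was measured on Affymetrix MG-U74Av2 arrays, 3 at each of 6 times, and per the labels the 3 were biological replicates. The deposited values were intensities, 1 signal per probe set on each array and not logged. How the probes were summarised and scaled is not given in the sources used here, and the precision of a value is limited by the number of arrays. The trimmed mean signal of every array, control probe sets included, lay between 150.09 and 150.12, so the deposited values had been scaled to a common level. In R 4.3.3, 16 was added, log2 taken and arrays quantile normalized. Control probe sets (66) were dropped, and limma 3.58.1 was fitted to the other 12422 with 1 mean per time (12 residual degrees of freedom) and eBayes with an intensity trend. Benjamini-Hochberg adjustment ran over all probe sets within each comparison. An exact permutation of 3 against 3 arrays cannot go below 0.1, so the calls rest on variance shared across probe sets. The code was run on simulated data with changes planted at 30 h and noise independent between arrays. That run lacked differences shared by arrays, so it checks the code and not the calls.

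Gene names came from the platform table, and all 69 genes were found in RefSeq by gene number. The rule for naming took from each role the 4 genes with the smallest F test p, all called at 30 h with at least 2-fold change, all called at 3 or 7 h, genes with opposite probe sets, and the 2 smallest p values of each partner list. It gave 45 of the 69, and the others are named so that every gene is accounted for. Genes, lists and tests were chosen with earlier results of these data known. Alternatives were 2 other scalings, constants of 1 and 64, other rules for probe sets, other model settings, a threshold of 0.01, and each array left out in turn.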

Additional observations from a re-analysis of the deposited data

How the results depend on the processing

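At 30 h the chromatin genes called lower numbered 27 to 30 and those called higher 7 to 8 when any 1 array was left out, and 34 to 37 were called in all. Leaving out 1 array gave counts of 0 to 1 at 3 h, 5 to 8 at 7 h, 18 to 24 at 14 h and 30 to 36 at 21 h. The same step gave 4 to 7 from 7 h to 14 h, 1 to 5 from 14 h to 21 h, 4 to 8 from 21 h to 30 h, 16 to 23 from 14 h to 30 h, 0 from 3 h to 7 h and 36 to 40 in the F test. The median change at 30 h ranged from -0.45 to -0.27. It was -0.47 with a constant of 1 and -0.62 without the dimmest 33.3% of probe sets, where fewer genes enter. Scaling to a common median gave 3 calls at 7 h in place of 6, array weights gave 1 call from 3 h to 7 h in place of 0, and the cause was not tested. With 0 calls from 3 h to 7 h by limma, 9 genes had an unadjusted p below 0.05. How many of all probe sets did so was not counted, so the 9 cannot be set against the array. A threshold of 0.01 left 13 calls at 14 h and 4 from 21 h to 30 h. A model of only the arrays compared, with fewer residual degrees of freedom, gave 3 calls from 7 h to 14 h, 1 from 14 h to 21 h and 4 from 21 h to 30 h. The fall of Smarcd2 from 14 h to 30 h turned to 0.042 with the mean of its probe sets and to 0.14 with probe sets of certain assignment, because its probe sets disagree. Over all calls of single genes, 1632 values under other settings gave 1514 in the same direction and past the threshold, 116 past it no longer and 2 reversed. The 2466 values with 1 array left out gave 2330, 136 and 0.

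Per the labels the letters mark biological replicates, and nothing there ties the cultures of a letter together. Not every pair of arrays with the same letter correlated above 0.1, so the letter was not taken as a pairing. Deviations of arrays with the same letter correlated between -0.09 and 0.21 (median 0.03, 3 of 45 pairs over 0.1), and 13 of 18 arrays correlated best with their own letter, a hint from the data that a letter shares something. Array A also had the lowest actin ratio at 6 of 6 times and the lowest Gapdh ratio at 5. With the letter as a replicate block, 37 chromatin genes were called at 30 h, 7 higher and 30 lower, 26 at 14 h, 35 at 21 h and 7 at 7 h. Array number limits what can be seen of dim genes: of the 11 in the dimmest 33.3%, 1 was called at 30 h.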
